A study of Homo sapiens with 45 samples.

Results

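The 30 genes described here are targets of the transcription factor p53. They were chosen by name, with no measured value in the rule, but with earlier results of these data known. They are 30 of the 60675 genes counted in each library. All 30 passed the filter on low counts, which left 21242 genes to test.

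p53 is held at a low level by MDM2, a ubiquitin ligase that is itself made from a p53 target gene, so that the pathway ends its own activation. Stress such as DNA damage frees p53, which then switches on genes that stop the cell cycle, repair DNA, alter metabolism or start cell death. HEK293 cells, derived from human embryonic kidney, carry adenoviral E1 genes, and the E1B protein they make binds p53 and lowers its activity at target genes.

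The cells were HEK293F, the suspension form of HEK293, all labelled wild type. AC1.112, AC1.203 and AC1.230 are labelled clonal, so that each is 1 clone, AC1P is labelled polyclonal, and 293F carries neither word. Each line was moved to fresh Expi293 medium and transfected with TransIT-VirusGEN and 3 plasmids that make recombinant adeno-associated virus (AAV): pHelper, RepCap9 and a reporter plasmid with ITRs, the inverted repeats that mark the DNA to be packaged. Messenger RNA was taken before transfection (0 h) and at 24 and 72 h, with 3 libraries for each of the 15 groups. No mock-transfected library was analysed here, so plasmids, reagent, fresh medium and time in culture cannot be told apart in any change over time. The labels do not say whether the 3 libraries of a group came from separate cultures, so the p-values measure the spread between these libraries, which may be technical. The design text speaks of high and baseline producers, but the labels do not say which lines they are.

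Total counts ran from 24727028 to 59837051 per library, with a median of 39247411, and mitochondrial genes took 2.05% to 4.18%. Levels are counts scaled to library size with TMM factors and given as CPM. The TMM factors, from 0.894 to 1.219, moved with line and time. Of the HEK293 markers, VIM lay between 590 and 1550 CPM in every library, while NEFM, another of them, ran from 1.3 to 4810 CPM. PAX2 and LHX1, also on that list, were low, at 0.198 to 8.8 and 1.16 to 8.67 CPM. NEFL ran from 79.1 to 1480 CPM, KRT8 from 22.5 to 206, KRT18 from 37.1 to 89.2 and CDH2 from 52 to 129. Of 4 genes of blood cells, PTPRC was at 0 in 34 of 45 libraries and CD14 in 2, while SPI1 and HBA1 were at 0 in none and reached 2.23 and 3.66 CPM. Of 3 fibroblast genes, COL1A2 was at 0 in 37 libraries and DCN in 1, and LUM was at 0 in none and reached 19.6 CPM. The endothelial genes CDH5 and PECAM1 were at 0 in 19 and 5 libraries and reached 0.123 and 0.39 CPM. The summed level of the fibroblast genes moved with line, at 11.2 to 12.4 CPM in 293F at 0 h, 17.8 to 21.4 in AC1.203, 2.32 to 2.9 in AC1.230, 1.01 to 1.59 in AC1.112 and 0.651 to 0.806 in AC1P. That of the blood genes ran from 2.1 to 2.99 CPM in 293F at 0 h and from 4.72 to 4.92 at 24 h, and did not pass 2.72 CPM in any AC1 library. The part of these markers in the results below was not tested. Fewer cells of a kind and less RNA per cell cannot be told apart in such bulk samples.

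A gene is called when its adjusted p, from edgeR's quasi-likelihood test with Benjamini-Hochberg adjustment over 21242 genes, is under 0.05. Rose, fell, higher and lower are used of called genes only. Among the 30, the annotation (GENCODE 29, GRCh38) places a gene on the opposite strand over 17 of them, a protein-coding gene over 11, such as ACTA2 over FAS, CPM over MDM2 and LACTB over RPS27L. The strand setting of the counting is not given in the sources used here, so counts of these members could include reads of their neighbours.

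To show where letters like the p53 binding element lie near these genes, 250 bases before each RefSeq start site (GRCh38.p14) were searched on both strands for the p53 consensus, a pair of half-sites of 10 bases each. A match allowed 2 mismatches in 20 bases and a spacer of up to 1 base, and the core C and G of each half-site had to be kept. The promoter table held 24 of the 30 members, in 35 windows. A full site lay in 4 of these windows, or 11.4%, against 0.441% of all 35116 windows, and they belong to MDM2, with 2 windows over the same site, FAS and AEN. The 30 were chosen as known p53 targets, so the gap between these shares tests nothing about them. Here the site is in capitals in 80 bases of MDM2, on chromosome 12 (chr12:68808893-68808972, plus strand), inside MDM2 and outside its annotated exons.
MDM2: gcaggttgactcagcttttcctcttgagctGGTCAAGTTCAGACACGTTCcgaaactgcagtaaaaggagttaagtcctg
The sites of the other two follow, alone, at chr10:88991309-88991328 for FAS and chr15:88621306-88621325 for AEN, both on the plus strand. The first overlaps annotated exons of FAS and of ACTA2, and the other an exon of AEN.
FAS: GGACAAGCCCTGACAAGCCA
AEN: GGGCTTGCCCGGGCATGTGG
These are matches of letters, not measured binding, and a window with no match says only that these letters are not in it. In AC1.112 at 0 h the log2 difference from 293F was 1.82 for FAS, 1.13 for MDM2 and 0.15 for AEN, the last -0.064 with total-count scaling. That line had the highest means of FAS and MDM2 at 0 h. In AC1.203 AEN was lower than 293F, a call that depended on single libraries, and AC1.230 had the lowest AEN mean of all lines.

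Before transfection, most of these genes were more abundant in the AC1 lines than in 293F. Of the 30, 22 were higher and 3 lower in AC1.112, where of all genes tested 62.6% were called, 30.4% higher and 32.2% lower. In AC1.203 23 were higher and 5 lower (all genes 57.8% called, 28.2% higher and 29.6% lower), and in AC1.230 20 were higher and 8 lower (all genes 62.1% called, 30.5% higher and 31.6% lower). In AC1P 23 were higher and 3 lower (all genes 62.4% called, 30% higher and 32.4% lower). The median log2 difference of the 30 was 0.57, 0.45, 0.50 and 0.78 in that order, while the median of all genes lay between -0.038 and -0.019. With total-count scaling, without TMM factors, the median of all genes lay between -0.248 and -0.198, and the members higher and lower were 19 and 5, 19 and 5, 18 and 9, and 20 and 4. The 4 comparisons share the 3 libraries of 293F. For 18 members, all 12 AC1 libraries at 0 h lay above all 3 of 293F, as they did for 15.7% of all genes. For TP53I3 and TIGAR all 12 lay below, as for 18% of all genes. PMAIP1, TIGAR and TP53I3 were the 3 lower members in both AC1.112 and AC1P. In AC1.203, XPC, TRIAP1 and AEN were lower beside TIGAR and TP53I3. Among these, TRIAP1 was no longer called without replicate 2 or 3 of AC1.203 at 0 h or replicate 1 of 293F at 0 h (-0.15 to -0.087, log2), nor AEN without replicate 1 of AC1.203 at 0 h or replicate 2 of 293F at 0 h (-0.11 to -0.082). All 30 members differed among the 5 lines at 0 h (F test, 80.8% of all genes), and all 30 among the 4 AC1 lines (68.1%).

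**Figure D1:**
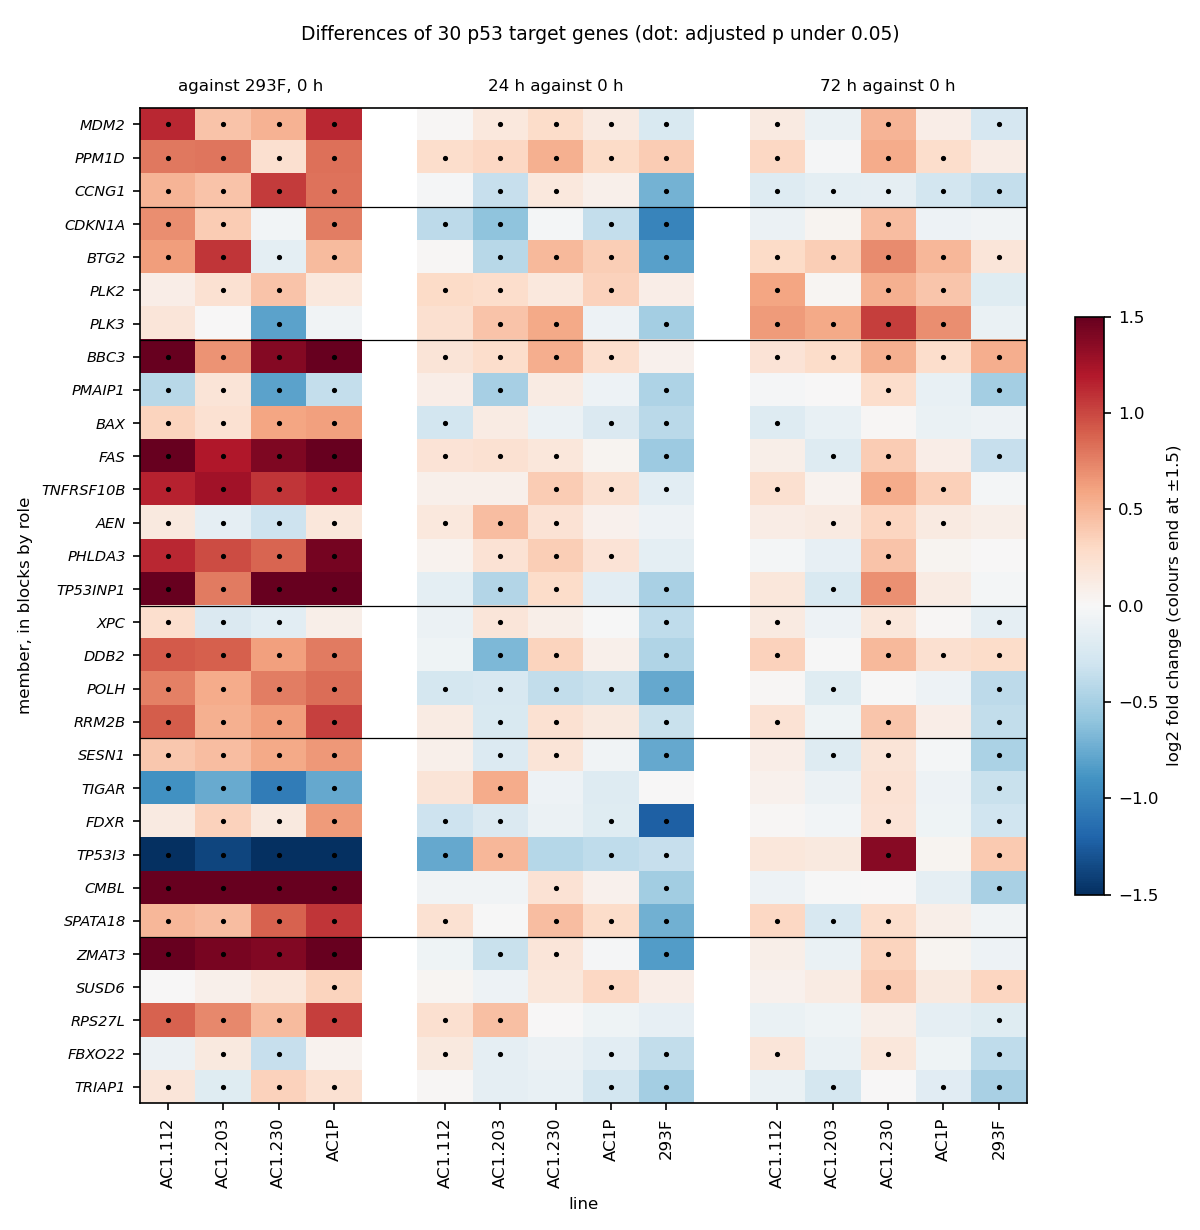
Log2 fold changes of the 30 genes (vertical axis, in blocks from top to bottom: feedback, arrest, cell death, DNA repair, metabolism, other) for each AC1 line against 293F at 0 h and for each line at 24 and 72 h against its own 0 h (horizontal axis); a dot marks an adjusted p under 0.05. The left block is mostly red, with 3 to 8 members lower in each AC1 line and TP53I3 and TIGAR lower in all 4, the 293F column at 24 h is mostly blue with 22 members lower, and the AC1.230 column at 72 h is mostly red with 24 higher.

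At 24 h the lines parted. In 293F, 22 of the 30 fell and PPM1D alone rose, where of all genes tested 41.9% were called, 19.8% higher and 22.1% lower. The median of the 30 was -0.43 (log2) in 293F, against -0.006 for all genes, and for 23 of them all 3 libraries at 24 h lay below all 3 at 0 h (all genes 27.6%). AC1.230 went the other way: 17 rose and POLH alone fell (all genes 26.9% called, 12.1% higher and 14.7% lower). AC1.203 was split, with 12 up and 12 down (all genes 41.9% called, 21% higher and 20.8% lower). In AC1P 9 rose and 7 fell (all genes 19.4% called, 9.85% higher and 9.5% lower), and in AC1.112 8 rose and 5 fell (all genes 23.4% called, 10.8% higher and 12.6% lower), the 5 being TP53I3, CDKN1A, FDXR, BAX and POLH. The calls lost in AC1.112 when 1 library was left out were rises: 3 rose and 5 fell without replicate 2 at 0 h or replicate 1 at 24 h, and 4 rose and 5 fell without replicate 3 at either time. In AC1P 5 rose and 6 fell without replicate 2 at 0 h, and 9 rose and 4 fell without replicate 1 at 0 h. In AC1.230 16 rose and 2 fell without replicate 2 at 0 h. With total-count scaling the members higher and lower at 24 h were 3 and 20 in 293F, 20 and 1 in AC1.230 and 13 and 11 in AC1.203. They were 9 and 5 in both AC1.112 and AC1P. The median of all genes then lay between 0.016 in AC1P and 0.098 in 293F. PPM1D rose and POLH fell in all 5 lines.

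The response at 24 h differed between lines for 28 of the 30 (F test of the interaction, 43.9% of all genes). Set against the mean response of the 4 AC1 lines, that of 293F was lower for 25 members and higher for none (all genes 24.4% called, 10.9% higher and 13.5% lower), with a median of -0.38 against -0.007 for all genes. The same 25 of 30 and 0 of 30 came out with total-count scaling. Averaged over the 5 lines, 11 members rose and 15 fell at 24 h (all genes 53.4% called, 25.8% higher and 27.6% lower), and the split was 14 and 11 without 293F and 7 and 13 without AC1.203.

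**Figure D2:**
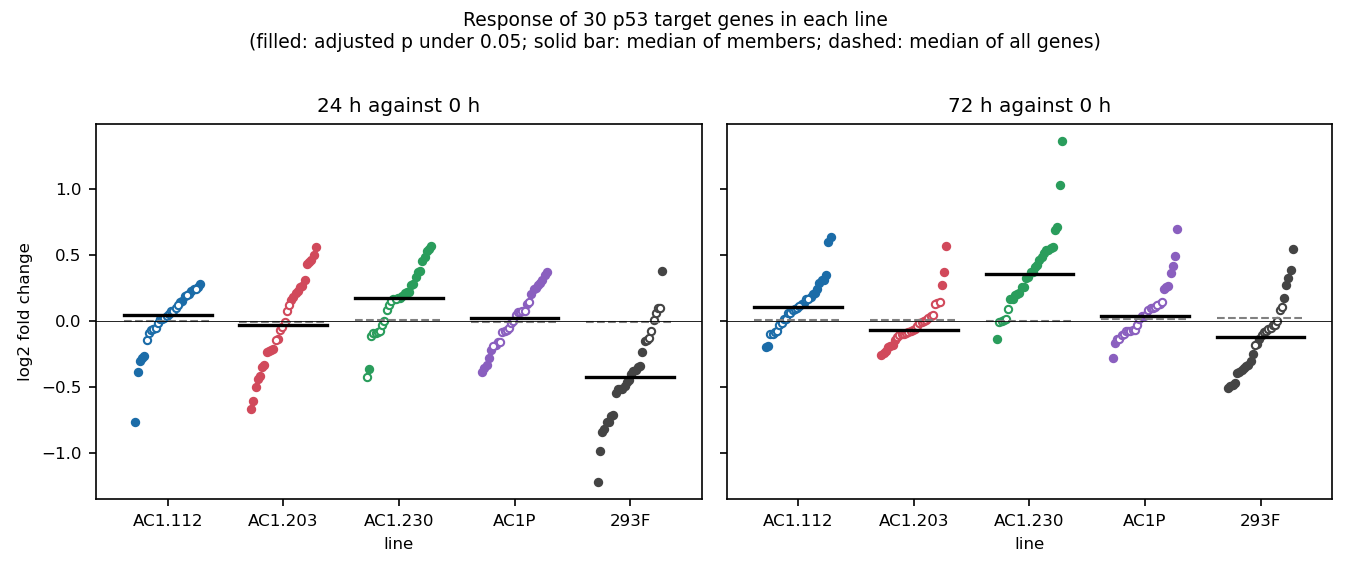
Log2 fold change (vertical axis) of each of the 30 genes at 24 h (left) and 72 h (right) against 0 h in each line (horizontal axis), sorted within a line; filled points have an adjusted p under 0.05, solid bars are the medians of the 30 and dashed bars those of all genes tested. The solid bar lies lowest in 293F at 24 h (-0.43) and highest in AC1.230 at 72 h (0.36).

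At 72 h most members were higher than at 0 h in AC1.230, and more were lower than higher in 293F. In AC1.230, 24 rose and CCNG1 alone fell, where of all genes tested 39.1% were called, 17% higher and 22.1% lower. The median was 0.36 against 0.003 for all genes, and for 24 members all 3 libraries at 72 h lay above all 3 at 0 h (all genes 21.9%). The fall of CCNG1 there was not called without replicate 1 or 2 or 3 of AC1.230 at 0 h or replicate 1 or 2 of AC1.230 at 72 h (-0.13 to -0.093, log2). In AC1.112 12 rose, and BAX and CCNG1 fell (all genes 32.6% called, 14.2% higher and 18.4% lower). In AC1P 8 rose, and CCNG1 and TRIAP1 fell (all genes 25.9% called, 12.7% higher and 13.2% lower), TRIAP1 not without replicate 2 or 3 of AC1P at 72 h (-0.18 to -0.16). In AC1.203 AEN, BBC3, BTG2 and PLK3 rose and 7 fell (all genes 30.9% called, 13.9% higher and 17% lower), and the split of 4 and 7 became 3 and 4 without replicate 2 at 0 h, 4 and 3 without replicate 3 at 0 h and 4 and 4 without replicate 3 at 72 h. AEN in that line was not called without replicate 1 or 2 of AC1.203 at 0 h or replicate 1 of AC1.203 at 72 h (0.086 to 0.13). The members higher and lower were 10 and 4 in AC1.112 without replicate 3 at 0 h and 8 and 4 without replicate 1 at 72 h, and in AC1P 7 and 4 without replicate 2 at 0 h and 8 and 1 without replicate 3 at 72 h. In 293F 14 were lower than at 0 h, and BBC3, BTG2, DDB2, SUSD6 and TP53I3 were higher (all genes 40.2% called, 18.3% higher and 21.9% lower).

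These splits at 72 h depended on the scaling, since total counts without TMM factors put the median of all genes at 0.121 to 0.219 over the lines, against 0.003 to 0.022 with them. With total-count scaling the members higher and lower were 20 and 0 in AC1.112, 7 and 0 in AC1.203, 28 and 0 in AC1.230, 14 and 1 in AC1P and 10 and 7 in 293F. The response at 72 h differed between lines for 26 members (all genes 23.2%). That of 293F was lower than the AC1 mean for 19 and higher for BBC3 (all genes 15.7% called, 6.34% higher and 9.39% lower), with a median of -0.25 against -0.024. With total-count scaling the 293F response at 72 h was lower for 15 members and higher for 1. The 24 h and 72 h comparisons of a line share its 0 h libraries.

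Averaged over the 5 lines, 15 members rose and 7 fell at 72 h (all genes 59.8% called, 30.3% higher and 29.5% lower), or 25 and 1 with total-count scaling, 10 and 12 without AC1.230, and 20 and 3 without 293F. From 24 h to 72 h 18 rose and 6 fell on average (all genes 58% called, 29.3% higher and 28.7% lower), or 24 and 1 with total-count scaling. This split became 14 and 5 without 293F, 15 and 4 without AC1.230 and 15 and 5 without AC1.112. It was 19 and 3 without AC1.203 and 18 and 3 without AC1P. In 293F, 18 of the 30 had all 3 libraries at 72 h above all 3 at 24 h (all genes 27.4%). BBC3 and BTG2 rose in all 5 lines at 72 h, and CCNG1 fell in all 5. With total-count scaling the fall of CCNG1 was called in AC1P and 293F, and CCNG1 stood at -0.046 (log2) in AC1.112, -0.004 in AC1.203 and 0.029 in AC1.230. BBC3 in AC1.112 was not called without replicate 3 of AC1.112 at 0 h (0.14), nor CCNG1 in AC1.203 without replicate 3 of AC1.203 at 0 h or replicate 1 of AC1.203 at 72 h (-0.14 to -0.12). By group means, 293F was the lowest of the 5 lines for 20 members at 0 h, 24 at 24 h and 24 at 72 h. No call was required for this order, and the share of all genes for which 293F was lowest was not counted. These counts therefore only describe the members. 293F was the highest at all 3 times for TIGAR and TP53I3.

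Among the feedback genes, MDM2 held 180.2, 165 and 165 CPM in the 3 libraries of 293F at 0 h. It held 368, 376 and 374 in AC1.112, 239.7, 222 and 226 in AC1.203, 234, 258 and 239 in AC1.230 and 386, 362 and 366 in AC1P, with no AC1 library as low as 293F. The log2 difference from 293F was 1.13 (SE 0.046, adjusted p = 1.09e-31) in AC1.112 and 0.43 (SE 0.046, adjusted p = 1.07e-12) in AC1.203. Over time MDM2 rose in AC1.230, from 244 ± 12.7 CPM (mean ± SD, n = 3) to 294 ± 4.64 at 24 h and 348 ± 10.7 at 72 h, and fell in 293F. There its libraries read 146, 146 and 144 CPM at 24 h and 142, 146 and 141 at 72 h, all below those at 0 h. The log2 change at 72 h was 0.51 (SE 0.045, adjusted p = 3.77e-14) in AC1.230 and -0.25 (SE 0.046, adjusted p = 6.14e-06) in 293F, the latter -0.054 and not called with total-count scaling. MDM2 had the smallest p of the 30 for lines that respond differently at 72 h (F test, adjusted p = 1.5e-13).

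CCNG1 encodes cyclin G, which recruits a phosphatase to MDM2. At 0 h it stood at 169 ± 7.15 CPM in 293F, 228 ± 6.56 in AC1.203, 241 ± 6.89 in AC1.112, 297 ± 8.37 in AC1P and 349 ± 9.08 in AC1.230. In 293F its libraries read 174, 173 and 161 CPM at 0 h and 106, 106 and 99.1 at 24 h, without overlap, a log2 change of -0.71 (SE 0.052, adjusted p = 1.82e-18). They came back in part by 72 h, to 135, 131 and 130.5. PPM1D, the WIP1 phosphatase that switches off p53 signalling, was the member that rose at 24 h in every line, by 0.26 (AC1.112) to 0.53 (AC1.230) on the log2 scale. In 293F its libraries read 30.5, 29.3 and 28.7 CPM at 0 h and 38.9, 38.3 and 37.9 at 24 h, so that it moved against the other 22 called members of that line.

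**Figure D3:**
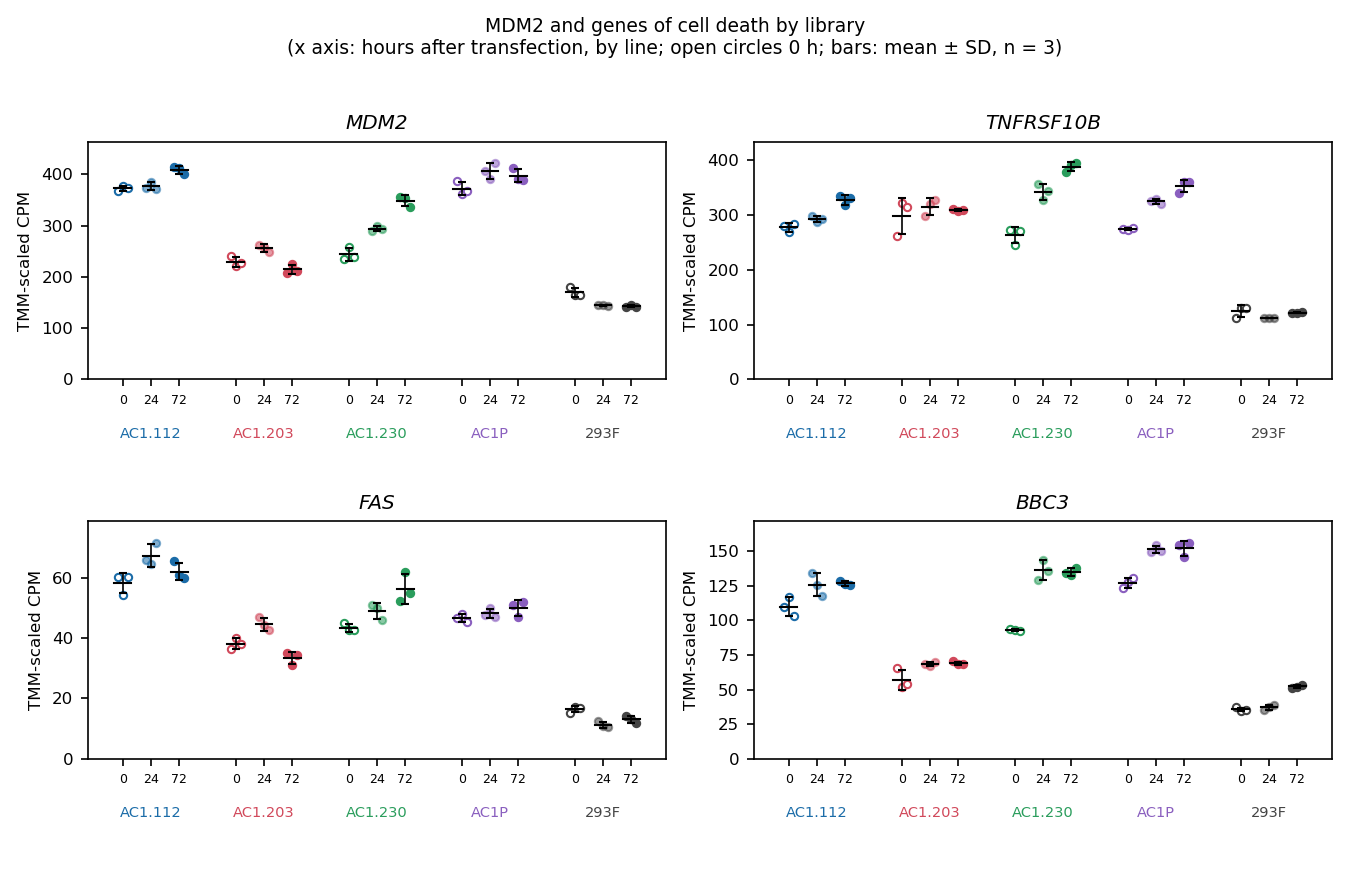
TMM-scaled CPM (vertical axes, from 0) of MDM2, TNFRSF10B, FAS and BBC3 in every library by line and hours after transfection (horizontal axes); points are libraries and bars are mean ± SD of 3. In all 4 panels the 293F libraries at 0 h lie below every AC1 library at 0 h.

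Among the genes of arrest, CDKN1A makes p21, the inhibitor of cyclin-dependent kinases. Its libraries at 0 h read 144, 145 and 142 CPM in 293F, 134, 132 and 153 in AC1.230, 184, 187 and 191 in AC1.203, 239, 240.3 and 222 in AC1.112 and 242, 244 and 248 in AC1P. The groups 293F and AC1.230 overlapped, and their difference was -0.041 (log2, adjusted p = 0.464). At 24 h the 3 libraries of 293F held 74.6, 69.5 and 72.9 CPM, and those of AC1.230 held 133, 143 and 132. CDKN1A fell in 4 of the 5 lines at 24 h, with log2 changes of -0.99 (SE 0.048, adjusted p = 1.86e-26) in 293F, -0.60 (SE 0.047) in AC1.203, -0.39 (SE 0.047) in AC1.112 and -0.36 (SE 0.046) in AC1P. In AC1.230 the change was -0.033 (adjusted p = 0.66). The response of 293F minus the AC1 mean was -0.64 (log2, adjusted p = 2.15e-15). By 72 h the level in 293F was 140.1, 134 and 141 CPM, each under the lowest at 0 h, a difference that was not called (-0.052, adjusted p = 0.405). In AC1.230 it had risen to 192, 189.6 and 196, a log2 change of 0.46 (SE 0.047, adjusted p = 3.15e-12). From 24 h to 72 h CDKN1A rose on average over the lines by 0.53 (SE 0.021, adjusted p = 3.2e-31).

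BTG2, an antiproliferative gene, gave the smallest p for a response at 24 h that differs between lines (F test, adjusted p = 2.89e-27). In 293F it went from 67.4, 68.9 and 69.9 CPM at 0 h to 39.7, 38.2 and 39.1 at 24 h and 75.8, 78.3 and 79.3 at 72 h. In AC1.203 it went from 151, 139 and 144 to 108, 106 and 112 and then to 188, 193 and 181, the highest group of all. Both lines thus dropped at 24 h and stood above 0 h at 72 h, with no overlap between the 3 times. In AC1.230 it climbed throughout, from 60.95, 60.7 and 64.8 CPM to 83.6, 90.2 and 87.6 and 103, 99.2 and 104. AC1P rose at both times, from 95.1 ± 0.844 CPM to 123 ± 2.57 and 134 ± 6.15, and AC1.112 stood at 106 ± 2.43, 108 ± 4.38 and 129 ± 1.71. The log2 change at 24 h was -0.82 (SE 0.046, adjusted p = 2.91e-23) in 293F, -0.41 (SE 0.044) in AC1.203, 0.49 (SE 0.045) in AC1.230 and 0.37 (SE 0.044) in AC1P. The gap between 293F and the AC1 mean was -0.93.

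PLK3, a stress-responsive polo-like kinase, had the largest mean rise at 72 h among the 30, 0.57 (SE 0.056, adjusted p = 1.15e-13). Its levels were low, so that counts ran from 153 to 696 per library. At 0 h it read 5.49, 4.38 and 4.76 CPM in AC1.230 and at 72 h 9.31, 10.7 and 9.97, a log2 change of 1.03 (SE 0.13, adjusted p = 2.39e-09). The AC1.112 libraries read 9.8, 9.09 and 10.1 at 0 h and 14.5, 14.99 and 15.5 at 72 h, those of AC1.203 8.81, 8.53 and 8.23 and 11.1, 13.2 and 13.7, and those of AC1P 8.55, 8.52 and 7.58 and 13.8, 13.6 and 12.7. In all 4 AC1 lines the groups did not overlap, whereas in 293F they did, at 7.18, 8.51 and 9.88 and 7.57, 8.09 and 8.16. The response of 293F minus the AC1 mean was -0.84 at 72 h (log2, adjusted p = 1.1e-05) and -0.80 at 24 h (adjusted p = 1.21e-05). PLK2, its relative, ranged from 8.55 to 20.7 CPM and rose in 3 lines at 72 h.

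**Figure D4:**
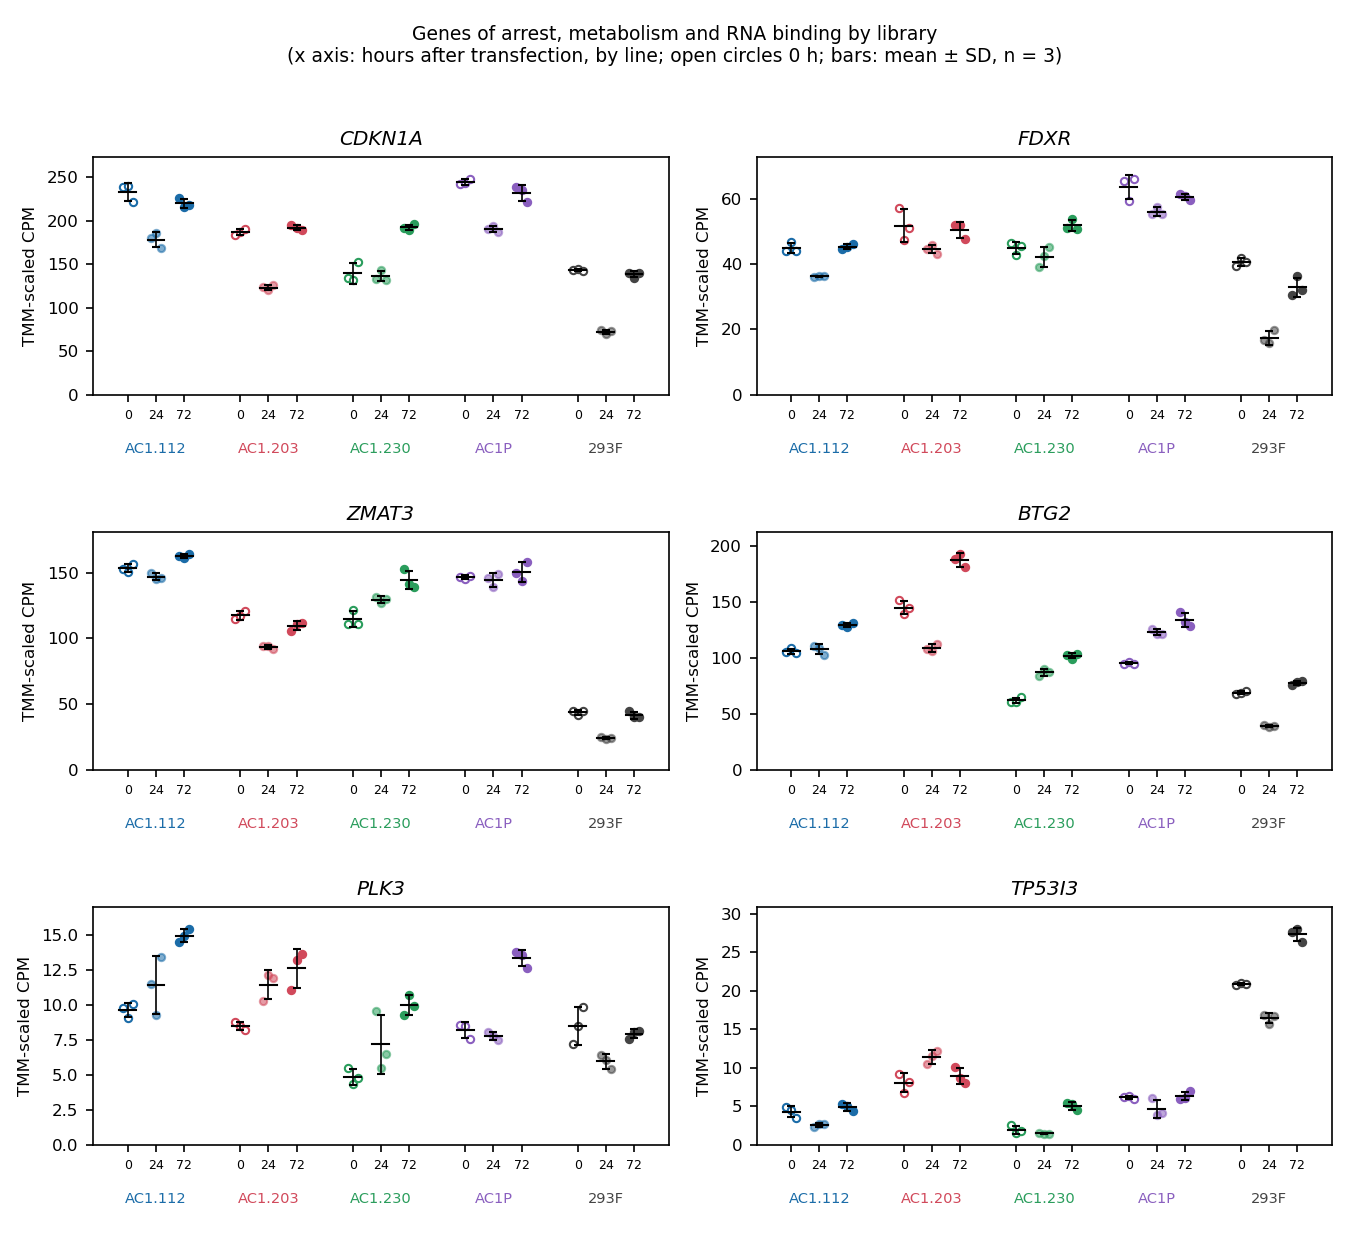
TMM-scaled CPM (vertical axes, from 0) of CDKN1A, FDXR, ZMAT3, BTG2, PLK3 and TP53I3 in every library by line and hours after transfection (horizontal axes); points are libraries and bars are mean ± SD of 3. CDKN1A, FDXR, ZMAT3 and BTG2 dip at 24 h in 293F, and TP53I3 is highest in 293F at each time.

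Most of the 8 genes of cell death were higher in the AC1 lines than in 293F. At 0 h, 7 of the 8 were higher and 1 lower in AC1.112, AC1.203 and AC1P. Of all genes, 30.4%, 28.2% and 30% were higher there and 32.2%, 29.6% and 32.4% lower. In AC1.230 6 were higher and 2 lower, where 30.5% of all genes were higher and 31.6% lower. With total-count scaling AEN lay below 293F in AC1.112 and AC1P, and BAX was no longer called in AC1.203. BBC3, which encodes the BH3-only protein PUMA, read 37.1, 34.8 and 35.2 CPM in 293F, 65.5, 51.97 and 53.9 in AC1.203, 93.98, 92.7 and 92.4 in AC1.230, 109.8, 117 and 103 in AC1.112 and 123, 128 and 131 in AC1P. Each AC1 group lay above 293F, by 0.68 (SE 0.057) in AC1.203 to 1.83 (SE 0.056, adjusted p = 4.39e-38) in AC1P. BBC3 was the single member whose 72 h response was higher in 293F than the AC1 mean, by 0.23 (SE 0.062, adjusted p = 0.00621). In 293F it read 35.4, 37.7 and 38.8 CPM at 24 h, overlapping 0 h, and 51.3, 52.1 and 53.3 at 72 h, all above 0 h, a change of 0.55 (SE 0.056, adjusted p = 2.24e-12). In AC1.230 most of the rise was present at 24 h, with 129.5, 144 and 136 CPM, and at 72 h the libraries read 134, 133 and 138. AC1.112 stood at 126 ± 8.42 and 127 ± 1.64 CPM at 24 and 72 h, AC1.203 at 68.4 ± 1.2 and 69 ± 1.27, and AC1P at 152 ± 2.61 and 152 ± 5.59.

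FAS and TNFRSF10B encode death receptors. FAS read 15.3, 17.3 and 16.96 CPM in 293F at 0 h, against 36.3, 39.9 and 38.2 in AC1.203, 45.02, 42.7 and 42.7 in AC1.230, 46.8, 48.2 and 45.3 in AC1P and 60.2, 54.5 and 60.3 in AC1.112, a log2 difference of 1.82 (SE 0.07, adjusted p = 5.33e-33) in the last. It fell in 293F at 24 h, to 12.4, 10.8 and 10.7 CPM (log2 change -0.55, SE 0.075, adjusted p = 9.67e-09), and stood at 14.1, 13.2 and 11.8 at 72 h. In AC1.230 FAS reached 52.5, 61.9 and 54.9 CPM at 72 h, above its 0 h libraries, by 0.38 (SE 0.065). At 24 and 72 h FAS stood at 67.4 ± 3.84 and 62.2 ± 2.95 CPM in AC1.112, 44.6 ± 2.15 and 33.5 ± 2.09 in AC1.203, and 48.3 ± 1.5 and 50.1 ± 2.58 in AC1P. TNFRSF10B read 113, 131 and 130.0 CPM in 293F at 0 h, and its 12 AC1 libraries ran from 246 to 321. The 4 differences from 293F were close to each other, from 1.08 to 1.26 (log2). It rose at 72 h to 378, 389.8 and 393 CPM in AC1.230, 339.9, 359 and 359.5 in AC1P and 334, 317 and 331 in AC1.112. It stood at 310.3, 307 and 308 CPM in AC1.203 and 122, 121 and 123 in 293F, both overlapping 0 h.

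TP53INP1, a cofactor of p53 in stress and autophagy, showed the widest gap upward in AC1.112 and AC1P at 0 h. It read 10.97, 10.2 and 8.65 CPM in 293F, 17.9, 15.9 and 17.6 in AC1.203, 28.97, 34.98 and 33.5 in AC1.230, 39.7, 40.2 and 43.3 in AC1.112 and 52.2, 47.5 and 49.4 in AC1P. The log2 difference ran from 0.78 (SE 0.087) in AC1.203 to 2.32 (SE 0.083, adjusted p = 1.38e-34) in AC1P. In AC1.230 it rose to 52.7, 50.8 and 53.3 CPM at 72 h, by 0.69 (SE 0.075, adjusted p = 3.56e-11). PHLDA3, which blocks AKT at the membrane, read 27.4, 24.2 and 27.8 CPM in 293F at 0 h and 73.9, 67.3 and 73.2 in AC1P, a difference of 1.43 (SE 0.061, adjusted p = 1.44e-30). In the other 3 AC1 lines its means at 0 h were 48.6 ± 3.07, 52.1 ± 1.94 and 57.7 ± 1.32 CPM (AC1.230, AC1.203, AC1.112), and at 72 h 65.4 ± 1.58, 47.99 ± 1.18 and 56.6 ± 0.659.

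BAX, the pore-forming protein of mitochondrial death, differed less between lines. At 0 h it read 117, 116 and 111 CPM in 293F, 148, 128 and 126 in AC1.203, 145, 152 and 137 in AC1.112, 177, 169 and 170.0 in AC1.230 and 179, 172 and 175 in AC1P. The gap to 293F was 0.61 (SE 0.055, adjusted p = 2.22e-15) in AC1P and 0.22 (SE 0.056, adjusted p = 0.000407) in AC1.203, the latter 0.042 and not called with total-count scaling. BAX fell at 24 h in 293F, to 80.4, 86.9 and 93.2 CPM (log2 change -0.40, SE 0.056, adjusted p = 1.32e-08), and at 72 h the libraries there read 109.9, 98.7 and 116, overlapping 0 h. PMAIP1, which encodes NOXA, another BH3-only protein, ran against the group in 3 AC1 lines. There it was lower than 293F at 0 h, with log2 differences from -0.36 to -0.80. In AC1.203 it was higher than 293F and had the highest group mean of all lines at 0 h. PMAIP1 fell in 293F to 112, 101 and 108 CPM at 72 h, from 164, 144 and 147. AEN, an apoptosis-enhancing nuclease, ranged from 114 to 196.6 CPM over all 45 libraries and rose in AC1.203 at 24 h, by 0.46 (SE 0.047, adjusted p = 9.22e-13).

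Of the 4 genes of DNA repair and nucleotide supply, all 4 fell at 24 h in 293F, where 22.1% of all genes fell. In AC1.203 1 rose and 3 fell (all genes 41.9% called, 21% higher and 20.8% lower), and in AC1.230 2 rose and 1 fell (all genes 26.9% called, 12.1% higher and 14.7% lower). In AC1.112 and AC1P 1 fell and none rose (all genes 12.6% and 9.5% lower). POLH, the polymerase that copies past ultraviolet damage, fell in all 5 lines, with log2 changes from -0.23 in AC1.203 to -0.77 (SE 0.073, adjusted p = 6.91e-14) in 293F. In 293F it read 22.01, 22.6 and 22.6 CPM at 0 h and 13.5, 12.1 and 13.9 at 24 h, without overlap. In AC1.203 the fall was not called without replicate 3 of AC1.203 at 0 h (-0.18). DDB2, which recognises damaged DNA, fell at 24 h in AC1.203, from 51.9, 50.5 and 47.5 CPM to 30.7, 30.96 and 32.6 (log2 change -0.67, SE 0.061, adjusted p = 1.76e-14), and rose in AC1.230, from 40.9, 44.2 and 38.1 to 51.4, 52.2 and 51.9 (log2 change 0.33, SE 0.059, adjusted p = 9.01e-06). RRM2B, a subunit of ribonucleotide reductase, stood at 35.6 ± 2.25 CPM in 293F at 0 h and at 72.5 ± 2.83 in AC1P, a difference of 1.02 (SE 0.066, adjusted p = 1.14e-21). It rose in AC1.230 to 73.2, 76.9 and 69.04 CPM at 72 h from 53.1, 57.9 and 53.7, while in 293F it fell to 29.2, 27.4 and 26 from 37.9, 33.4 and 35.6, a change not called with total-count scaling (-0.17). In AC1.112 and AC1.203 RRM2B stood at 67.1 ± 7.48 and 51.5 ± 5.87 CPM at 0 h. XPC, the other damage sensor of the group, ranged from 47.1 to 83.6 CPM over all libraries.

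For changes against 0 h within a line, the genes of metabolism and mitochondria held both ends of the range. FDXR, the mitochondrial ferredoxin reductase, made the deepest fall of the 30 in 293F at 24 h. Its 3 libraries there read 39.4, 41.8 and 40.7 CPM at 0 h, 16.7, 15.8 and 19.9 at 24 h and 30.6, 36.2 and 31.96 at 72 h. The 3 groups did not overlap, and the change at 24 h was -1.22 (SE 0.068, adjusted p = 1.85e-23). At 24 h FDXR read 36.1, 36.2 and 36.4 in AC1.112, 44.7, 45.7 and 43.1 in AC1.203, 38.95, 42.5 and 45.1 in AC1.230 and 55.2, 57.5 and 55.3 in AC1P. All 12 of these libraries lay above the 3 of 293F. At 0 h the means of those lines had been 44.8 ± 1.55, 51.8 ± 4.91, 44.9 ± 1.9 and 63.6 ± 3.65. The response of 293F minus the AC1 mean was -1.02 (log2, adjusted p = 2.37e-17).

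SESN1, a sestrin that restrains mTORC1, read 122, 120.3 and 119.8 CPM in 293F at 0 h, 75, 70.2 and 68.3 at 24 h and 87.7, 83.7 and 90.4 at 72 h. The log2 change was -0.76 (SE 0.047, adjusted p = 1.93e-21) at 24 h and -0.47 (SE 0.047, adjusted p = 8.78e-13) at 72 h. In AC1.230 it rose slightly, from 182, 179 and 175 CPM to 205, 208 and 200 at 24 h. At 0 h SESN1 stood at 160.0 ± 4.33 CPM in AC1.112, 166 ± 3.76 in AC1.203 and 189.9 ± 3.56 in AC1P. SPATA18, which takes part in the repair and removal of mitochondria, fell in 293F at 24 h from 11.9, 11.3 and 10.7 CPM to 6.31, 6.83 and 7.47 (log2 change -0.72, SE 0.093, adjusted p = 1.53e-09) and rose in AC1.230 from 21.3, 21.2 and 20.1 to 27.8, 27.3 and 30.96 (log2 change 0.46, SE 0.081, adjusted p = 7.68e-06). In AC1.112, AC1.203 and AC1P its means at 0 h were 16.01 ± 0.438, 15.7 ± 2.44 and 23.8 ± 0.722 CPM. CMBL, a hydrolase, read 40.3, 41.8 and 44.1 CPM in 293F at 0 h, while the 12 AC1 libraries ran from 112 to 161. Its differences from 293F were 1.62 (SE 0.063) in AC1.203 to 1.90 (SE 0.063, adjusted p = 2.5e-34) in AC1P.

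TP53I3 and TIGAR ran the other way. TP53I3, a quinone oxidoreductase also called PIG3, read 20.7, 21.04 and 20.9 CPM in 293F at 0 h. The AC1 libraries read 9.17, 6.76 and 8.21 in AC1.203, 6.17, 6.302 and 5.95 in AC1P, 4.97, 4.52 and 3.47 in AC1.112 and 2.56, 1.48 and 1.77 in AC1.230. The log2 difference from 293F was -3.41 (SE 0.14, adjusted p = 6.17e-31) in AC1.230 and -1.37 (SE 0.12, adjusted p = 2.36e-15) in AC1.203. AC1.230, the line with the lowest level, showed the largest rise of any member in any line at 72 h, to 5.39, 5.28 and 4.47 CPM (log2 change 1.36, SE 0.15, adjusted p = 7.28e-11). The 293F libraries then read 27.6, 28.04 and 26.4. Counts of TP53I3 went down to 50 in a library. TIGAR, which lowers glycolytic flux, read 28.7, 24.3 and 25.8 CPM in 293F at 0 h, and its AC1 means were 12.7 ± 0.218 in AC1.230, 14.02 ± 0.708 in AC1.112, 15.5 ± 0.819 in AC1.203 and 15.4 ± 1.21 in AC1P. It rose in AC1.203 at 24 h, to 24.1, 21.2 and 23.3 CPM (log2 change 0.56, SE 0.082, adjusted p = 4.68e-08), and was back at 14.1, 14.5 and 15.3 at 72 h.

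Of the other 5 members, ZMAT3, an RNA-binding protein that acts on splicing, separated the lines at 0 h with the smallest p of the 30 (F test, adjusted p = 3.45e-41). It read 44.8, 41.7 and 44.6 CPM in 293F, 111, 121 and 111 in AC1.230, 115, 117 and 121 in AC1.203, 147, 145 and 148 in AC1P and 152, 150.5 and 156 in AC1.112. The difference from 293F was 1.81 (SE 0.049, adjusted p = 2.9e-41) in AC1.112 and 1.39 (SE 0.048) in AC1.230. At 24 h ZMAT3 fell in 293F, to 25.2, 23.7 and 24.3 CPM (log2 change -0.84, SE 0.051, adjusted p = 7.51e-22), and returned to 44.4, 39.8 and 39.9 at 72 h. In AC1.203 it fell at 24 h to 94.4, 93.9 and 91.95, and in AC1.230 it rose to 132, 126 and 129.8. RPS27L, a ribosomal protein relative, was higher in every AC1 line at 0 h, from 0.47 in AC1.230 to 1.04 (SE 0.058, adjusted p = 1.37e-24) in AC1P, with 54.7, 54.5 and 54.8 CPM in 293F and 114, 112 and 110.1 in AC1P. It rose in AC1.203 at 24 h, from 88.8, 89.9 and 90.7 CPM to 133, 125 and 110.0, and read 87.5, 84.8 and 86.1 at 72 h.

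FBXO22, a subunit of a ubiquitin ligase, was among the members whose 72 h responses differed most between lines by p (adjusted p = 3.68e-10). It fell in 293F, from 107, 102 and 102 CPM at 0 h to 81.6, 77.3 and 81.6 at 24 h and 78.8, 79.1 and 80.2 at 72 h (log2 change -0.38, SE 0.045, adjusted p = 1.72e-10), and rose in AC1.112, from 96.3, 98.04 and 99.04 to 113, 111 and 109 at 72 h (log2 change 0.18, SE 0.045, adjusted p = 0.0011). TRIAP1, an inhibitor of apoptosis, fell in 293F from 81.4, 79.2 and 71.9 CPM to 57.6, 51.9 and 53.6 at 24 h. SUSD6 ranged from 13.2 to 23.7 CPM over all libraries, with no called change in 4 of the lines at 24 h. Per kilobase of annotated exon, CCNG1 had the highest median level of the 30 at 0 h, 77.0 CPM per kb, followed by CDKN1A at 61.4. PLK2 and PLK3 had the lowest, 2.44 and 2.45 CPM per kb.

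Of 28 genes that regulate p53 or act beside it, 13 rose and 8 fell on average at 24 h (all genes 53.4% called, 25.8% higher and 27.6% lower), and 9 rose and 15 fell at 72 h (all genes 59.8% called, 30.3% higher and 29.5% lower), with medians of 0.054 and -0.088 (log2) against -0.006 and 0.028 for all genes. TP73, which encodes the p53 relative p73, rose from 10.2, 12.1 and 11.4 CPM in 293F to 37.6, 34.4 and 33.4 at 24 h (log2 change 1.65, SE 0.087, adjusted p = 1.11e-24). In AC1.203 it rose from 4.77, 5.43 and 5.33 to 13.9, 15.6 and 14.3 CPM (log2 change 1.499, SE 0.10, adjusted p = 1.49e-19). Its mean change at 72 h was 0.85 (SE 0.04). In AC1.112, AC1.230 and AC1P no gene of this list, TP73 included, was called at 24 h with a log2 rise of at least 1. The largest change of the list in AC1.112 was 0.339. The rise of TP73 in AC1P at 24 h was not called without replicate 2 of AC1P at 24 h (0.212). TP63, another relative, showed a mean change of 1.70 (SE 0.71, adjusted p = 0.0337) at 72 h from a level of at most 0.47 CPM in any library, a call that ended without replicate 3 of AC1.203 at 0 h or replicate 2 of AC1P at 0 h or replicate 2 of AC1.230 at 72 h or replicate 3 of AC1.112 at 72 h or replicate 3 of AC1.203 at 72 h or replicate 3 of AC1P at 72 h (1.101 to 1.69). The TP63 call also ended without the line AC1.203 (1.139) or the line AC1.230 (1.527). MDM4, which binds p53 and blocks its activation domain, rose at 72 h on average, by 0.34 (SE 0.046, adjusted p = 7.65e-08), with 42.1, 41.4 and 31.3 CPM at 0 h and 63.4, 59.1 and 65.2 at 72 h in AC1P, and no called change in 293F. CHEK2, the checkpoint kinase, fell on average at 72 h, a log2 change of -0.35 (SE 0.032, adjusted p = 3.37e-15).

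Of a wider list of other p53 targets, 33 were matched to the files by symbol and 31 tested. Of these, 8 were higher and 14 lower on average at 24 h and 17 higher and 6 lower at 72 h, with medians of -0.058 and 0.136. That is 22 and 23 of 31 called, where 53.4% and 59.8% of all genes were called. In 293F at 24 h 6 rose and 16 fell (median -0.20), where 19.8% of all genes rose and 22.1% fell. In AC1.230 at 72 h 18 rose and 2 fell (median 0.32), where 17% of all genes rose and 22.1% fell. In 2 lines this list and the 30 members split in opposite directions at 72 h. In 293F 12 of this list rose and 4 fell (median 0.145), while 5 of the 30 members rose and 14 fell. Of all genes there, 18.3% rose and 21.9% fell. In AC1.203 9 of this list rose and 4 fell (median 0.171), while 4 of the 30 members rose and 7 fell. Of all genes there, 13.9% rose and 17% fell. The 24 h response of 293F was lower than the AC1 mean for 11 of this list and higher for 3 (median -0.279), where 24.4% of all genes were called. The 72 h response of 293F was lower for 3 of this list and higher for 3 (median -0.076), where 15.7% of all genes were called. At 0 h against 293F, 11 of this list were higher and 14 lower in AC1.112 (median -0.23), and 9 were higher and 19 lower in AC1.230 (median -0.45), where 62.6% and 62.1% of all genes were called. Among its larger mean changes at 72 h were those of LIF, a cytokine, 1.34 (SE 0.084, adjusted p = 2.77e-21), and GDF15, a stress cytokine, 1.06 (SE 0.067, adjusted p = 1.15e-21). PIDD1, a platform for caspase activation, rose by 0.88 (SE 0.04). Of 14 cell cycle genes known to be repressed through p53, p21 and the DREAM complex, 2 rose and 11 fell on average at 24 h and 13 fell at 72 h, with medians of -0.15 and -0.32, where 27.6% of all genes fell at 24 h and 29.5% at 72 h. Not every line followed the mean at 24 h. In AC1.203 5 rose and 2 fell (median 0.052), where 21% of all genes rose and 20.8% fell. In AC1.112 3 fell and none rose (all genes 12.6% lower). In AC1.230 11 fell, in AC1P 9 and in 293F 10, where 1 rose (all genes 14.7%, 9.5% and 22.1% lower). The mean log2 change at 72 h was -0.48 (SE 0.024, adjusted p = 4.24e-26) for BIRC5 (survivin), -0.48 (SE 0.024) for CCNB1 (cyclin B), -0.43 (SE 0.025) for PLK1, a mitotic kinase, and -0.36 (SE 0.021) for CCNA2 (cyclin A).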

How the data were processed

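Messenger RNA of 45 libraries was sequenced after a stranded library preparation, per the labels' protocols. The authors deposited a table of raw read counts per gene for each library, made with HISAT2, Subread and featureCounts on GRCh38, per the submitters' processing notes. For versions, annotation and strand setting, the sources used here give nothing.

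Of 60675 Ensembl identifiers, 56558 matched a symbol and 57055 an entry of GENCODE 29, and no row was without a gene. Groups came from the labels. Genes passing filterByExpr (minimum count 10, minimum total 15) were scaled by TMM and tested with edgeR 4.0.16 in R 4.3.3, by the quasi-likelihood test with robust dispersion over all 15 groups, with Benjamini-Hochberg adjustment over 21242 genes and a threshold of 0.05. Each line was compared with its own 0 h and each AC1 line with 293F at 0 h, and interactions compared the responses. Alternatives were DESeq2 1.42.0, its size factors in edgeR, no filter, a stricter filter (50 counts in 3 libraries), a replicate block, and leaving out each library or line. Total-count scaling was chosen after seeing the data. The scripts were tested on simulated data.

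The members and lists were chosen with earlier results of these data known. Members described by group were CDKN1A, MDM2, BBC3 and BAX, those called with a log2 change of at least 0.5 in a mean over lines or 1 in a line or against 293F, and the 5 with the smallest p of each F test. Other members are given by range, with single values chosen after they were seen. Of the other lists, MDM4 and up to 4 called genes with the largest mean change at 72 h are named, apart from items not reported here, and single lines shown for these were chosen after their values were seen. Total counts of 24727028 to 59837051 per library set the precision. No 2 libraries of a group agreed within sampling noise.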

Additional observations from a re-analysis of the deposited data

Results flagged for a closer look

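These responses differed between 293F and the AC1 lines by a test of the difference itself (edgeR, quasi-likelihood interaction, Benjamini-Hochberg adjusted). At 24 h the log2 response of 293F minus the AC1 mean was -1.022 for FDXR, -0.959 for SPATA18, -0.934 for BTG2, -0.804 for PLK3 and -0.782 for ZMAT3. It was -0.766 for SESN1, -0.708 for FAS, -0.677 for CCNG1, -0.641 for CDKN1A and -0.561 for CMBL. In all, 25 of the 30 members differed in this contrast (all genes 24.4%) and 28 differed among the 5 lines (all genes 43.9%). At 72 h the difference was -0.836 for PLK3, -0.575 for PLK2, -0.541 for PMAIP1 and -0.536 for RRM2B. There 20 members differed in this contrast (all genes 15.7%) and 26 among the 5 lines (all genes 23.2%). The counts and values share the 0 h libraries of each line. Groups of 3 libraries are too small for a test of single outlying libraries.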

How the results depend on the processing

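Of 511 calls of a member in a comparison, 373 held under every alternative run for them and 138 lost the call or the sign under at least 1. Leaving out 1 library ended 256 of 7620 refitted calls and reversed none. For AC1.112 at 24 h the 13 members called became 8 to 13 when 1 library was left out, and for AC1.203 at 72 h the 11 became 7 to 10. The latter count was also 7 with total-count scaling and 7 with no filter on low counts.

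Mean changes over the lines reversed sign when a line was left out. Without 293F, SESN1 stood at 0.006, BTG2 at 0.12 and CMBL at 0.047 at 24 h, and SESN1 at 0.026 at 72 h. Without AC1.203, BTG2 stood at 0.019 and TIGAR at -0.013 at 24 h, and PMAIP1 at -0.016 from 24 to 72 h. Without AC1.230, CDKN1A stood at -0.044, MDM2 at -0.029, ZMAT3 at -0.013 and PHLDA3 at -0.027 at 72 h, and CCNG1 at 0.007 from 24 to 72 h. Without AC1P, CCNG1 stood at 0.016 from 24 to 72 h.

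Total-count scaling moves every gene of a comparison by about the same amount. It reversed the 72 h means of BAX (0.06), SESN1 (0.071), POLH (0.023), RPS27L (0.075) and CMBL (0.011), and the 24 to 72 h means of CCNG1 (0.042), PHLDA3 (0.02) and CMBL (0.024). At 72 h it reversed CCNG1 (0.029) in AC1.230, and XPC (0.064) and RPS27L (0.022) in 293F. At 0 h against 293F it reversed AEN (-0.064) and TRIAP1 (-0.031) in AC1.112, FBXO22 (-0.037) in AC1.203, FDXR (-0.032) in AC1.230 and AEN (-0.019) in AC1P. The cause of the reversals was not tested beyond these constructions.

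Replicate numbers did not pair the libraries: same-numbered libraries of a line at different times had correlations of deviations from -0.067 to 0.052, with 0 of 45 above 0.1. With a replicate block 25 members were called in the mean at 24 h, against 26 without it, and 509 of 511 calls held. Depth limits the members of low count most, PLK3 and TP53I3 among them.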
